A study of Mus musculus with 158 samples.

Results

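The 9 genes described here encode transcription factors of the Sox family: Sox2, Sox21, Sox9, Sox8, Sox10, Sox5, Sox6, Sox4 and Sox11. They were taken by gene symbol from a table of 21956 mouse gene rows, which holds 19 Sox genes in all. Sox2, Sox21, Sox9, Sox8, Sox10, Sox5 and Sox6 are treated as the 7 progenitor and glial genes, and Sox4 and Sox11 as the 2 genes of young neurons.

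The RNA came from single cells of the mouse brain, each drawn into a patch pipette, and no group was treated. The 6 groups were 86 astrocytes from cortical cultures of 7 to 15 days, 8 libraries labelled neurons from hippocampal cultures of 15 days, 5 CA3 neurons, 15 CA1 neurons and 22 cortical neurons from acute slices, and 13 neurons from cortical cultures of 6 to 15 days. The strain was C57/BL6/N, except for the hippocampal cultures and the 7-day astrocytes, which were C57/BL6, and the labels give neither the age nor the sex of the mice. The labels tie no cell to an animal or a culture, so every group stands as 1 sample and the differences below have no replicate check and no test.

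Sox proteins bind DNA through a shared domain, the HMG box, and usually act with partner proteins. In the developing brain Sox2 keeps neural progenitors in their undifferentiated state, Sox9 takes part in the switch to making glia and stays on in astrocytes, and Sox10 marks the oligodendrocyte lineage. Sox4 and Sox11 come on as progenitors leave the cell cycle and activate genes of the young neuron, among them Tubb3 and Dcx.

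The HMG box is also where these genes look most alike, so a stretch of its coding sequence is shown for 5 of them, as it bears on whether a read can be placed. The sequences are 120 bases of the coding strand in GRCm38, 5′ to 3′, and capitals mark bases that differ from Sox11. They lie at chr12:27342148-27342267 (minus strand) in Sox11, chr13:28952731-28952850 (minus strand) in Sox4, chr3:34650539-34650658 (plus strand) in Sox2, chr11:112782894-112783013 (plus strand) in Sox9 and chr15:79163291-79163410 (minus strand) in Sox10, each within 1 exon.
Sox11: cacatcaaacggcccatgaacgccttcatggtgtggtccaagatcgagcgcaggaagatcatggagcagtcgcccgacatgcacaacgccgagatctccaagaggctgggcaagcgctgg
Sox4: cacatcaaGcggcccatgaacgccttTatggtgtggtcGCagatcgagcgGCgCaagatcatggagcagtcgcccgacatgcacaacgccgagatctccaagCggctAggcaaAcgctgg
Sox2: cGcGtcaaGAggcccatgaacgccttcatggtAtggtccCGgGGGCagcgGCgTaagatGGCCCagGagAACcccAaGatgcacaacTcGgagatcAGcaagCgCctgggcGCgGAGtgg
Sox9: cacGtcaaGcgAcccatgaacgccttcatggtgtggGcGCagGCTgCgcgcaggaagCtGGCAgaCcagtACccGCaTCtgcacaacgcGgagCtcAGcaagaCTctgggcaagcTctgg
Sox10: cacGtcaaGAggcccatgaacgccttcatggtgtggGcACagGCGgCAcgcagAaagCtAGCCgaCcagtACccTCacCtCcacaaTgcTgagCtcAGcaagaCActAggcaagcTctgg

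Sox4 matched Sox11 at 110 of the 120 bases, whereas Sox2 matched it at 84, Sox9 at 91 and Sox10 at 87. Sox2 and Sox21 shared 111 bases, Sox9 and Sox8 106, Sox9 and Sox10 105, and Sox5 and Sox6 102. The longest stretch of coding sequence identical between 2 of the 9 genes was 48 bases, between Sox4 and Sox11, and the next were 44 bases between Sox9 and Sox10 and 38 bases between Sox2 and Sox21. Reads within such stretches could be counted for either gene or for neither, and the read length is not given in the sources used here.

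Sox4 (chr13:28948919-28953713, minus strand), Sox11 (chr12:27334264-27342574, minus strand), Sox2 (chr3:34650405-34652461, plus strand) and Sox21 (chr14:118233232-118237030, minus strand) are each a single exon in GENCODE M21. Sox9 (chr11:112782224-112787760, plus strand), Sox8 (chr17:25565892-25570686, minus strand) and Sox10 (chr15:79154908-79165240, minus strand) are short genes with introns, and Sox5 (chr6:143828425-144781977, minus strand) and Sox6 (chr7:115470872-116038796, minus strand) are long ones. Exon bases are shared with a gene of the opposite strand over 2616 bases in Sox4, 1330 in Sox5, 713 in Sox21 and 329 in Sox8. The library kit keeps strand, but the strand setting of the counting is not given in the sources used here, so reads of these 4 genes and their antisense partners may not have been told apart. Sox2 lies within Sox2ot on the same strand and shares no exon base with it.

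The start regions of the 2 genes of young neurons are shown because their RNAs were high in the same group. The RefSeq windows (GRCm38.p6) run from 250 to 51 bases before the start of transcription, at chr13:28953750-28953949 for Sox4 and chr12:27342769-27342968 for Sox11, both on the minus strand. Capitals mark CANNTG, the E-box that proneural factors bind, which reads the same on both strands.
Sox4: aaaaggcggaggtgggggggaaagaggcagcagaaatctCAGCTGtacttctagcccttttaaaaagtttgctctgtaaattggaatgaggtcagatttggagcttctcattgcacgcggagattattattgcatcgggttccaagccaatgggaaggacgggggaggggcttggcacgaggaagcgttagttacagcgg
Sox11: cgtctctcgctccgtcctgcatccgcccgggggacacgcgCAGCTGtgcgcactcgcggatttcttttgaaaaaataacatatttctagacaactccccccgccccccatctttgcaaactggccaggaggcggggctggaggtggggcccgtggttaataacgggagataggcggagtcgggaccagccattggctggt

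Each window held 1 CANNTG, spelled CAGCTG in both, and at least 1 CANNTG occurs in 59% of all 32851 windows of the same length. A window was found for 7 of the 9 genes. The Sox2, Sox21 and Sox5 windows held no CANNTG. The Sox8 window held 1 and each Sox6 window 1 or 2, so the E-box was not particular to Sox4 and Sox11. A CAGCTG also occurs in a Sox6 window.

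The level of a gene is given as CPM, its counts per 1000000 counts of a cell or of all cells in a group added up. A gene was called detected in a cell when at least 5 counts remained after the cell was thinned to 1000000 counts. Bracketed values after a summed level are exact Poisson 95% intervals, which cover counting error only. Those after a share of cells are Clopper-Pearson 95% intervals, which treat the cells as independent draws. The same holds for the upper limits given where a gene was detected in no cell. As the labels tie no cell to an animal or culture, these do not cover spread between animals or cultures. The groups held 27452025 counts (CA3) to 1275296188 counts (astrocytes), and single cells 535369 to 38680739. The median cell had 4921 genes detected among astrocytes, 7507 in hippocampal culture, 2150 in CA3, 1894.5 in CA1, 1808 in cortical slices and 4447 in cortical culture, so a low detection share in slices stands beside fewer genes detected of any kind. Each slice group also mixed libraries of both basecalling versions. The 5 comparisons below share groups, so they are not independent of each other.

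Some neurons had glial markers, which touches several results below. Of the cells labelled neurons, 3 of the 13 cultured cortical neurons and 5 of the 22 cortical slice neurons had a larger share of 15 astrocyte markers detected than of 27 neuron markers. Cultured cortical cells 4 and 7 each had 13 astrocyte and 21 neuron markers detected, and cell 6 had 12 and 17. Cortical slice cells 13 and 16 had 12 astrocyte markers each, whereas cells 11, 18 and 20 had 2 to 4 astrocyte and 0 to 6 neuron markers. Astrocytes had a median of 9 of the 15 markers (1 to 14). RNA from a neighbouring cell drawn into the pipette was not tested.

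Levels were also divided by the exon bases of a gene, merged over all its annotated transcripts. In astrocytes Sox2 and Sox9 were highest, with 159 and 76.5 CPM per kb of exon. Sox4 followed at 9.69, Sox21 at 9.19, Sox6 at 7.71, Sox11 at 7.68, Sox8 at 5.13 and Sox5 at 0.378. Sox6 has 14832 merged exon bases, and undivided it had 114 CPM, against 46.5 for Sox4 and 34.9 for Sox21. Whether levels scale with exon length in this amplified RNA was not tested. In cultured cortical neurons Sox11 and Sox4 led, with 111 and 102 CPM per kb, ahead of Sox2 at 57.8, Sox10 at 14.9, Sox9 at 8.15 and Sox5 at 3.13. Of the 9 genes, 5 were higher in astrocytes by a log2 ratio of at least 1 (with 1 CPM added to both levels), against 29.8% of the 17473 genes measured, and 4 were lower, against 19.9%. The 5 were Sox2, Sox21, Sox9, Sox8 and Sox6, all of the progenitor and glial set. The 4 were Sox4 and Sox11, the genes of young neurons, together with Sox10 and Sox5. The median log2 ratio was 1.45 over the 9 genes and 0.08 over all genes measured.

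**Figure D1:**
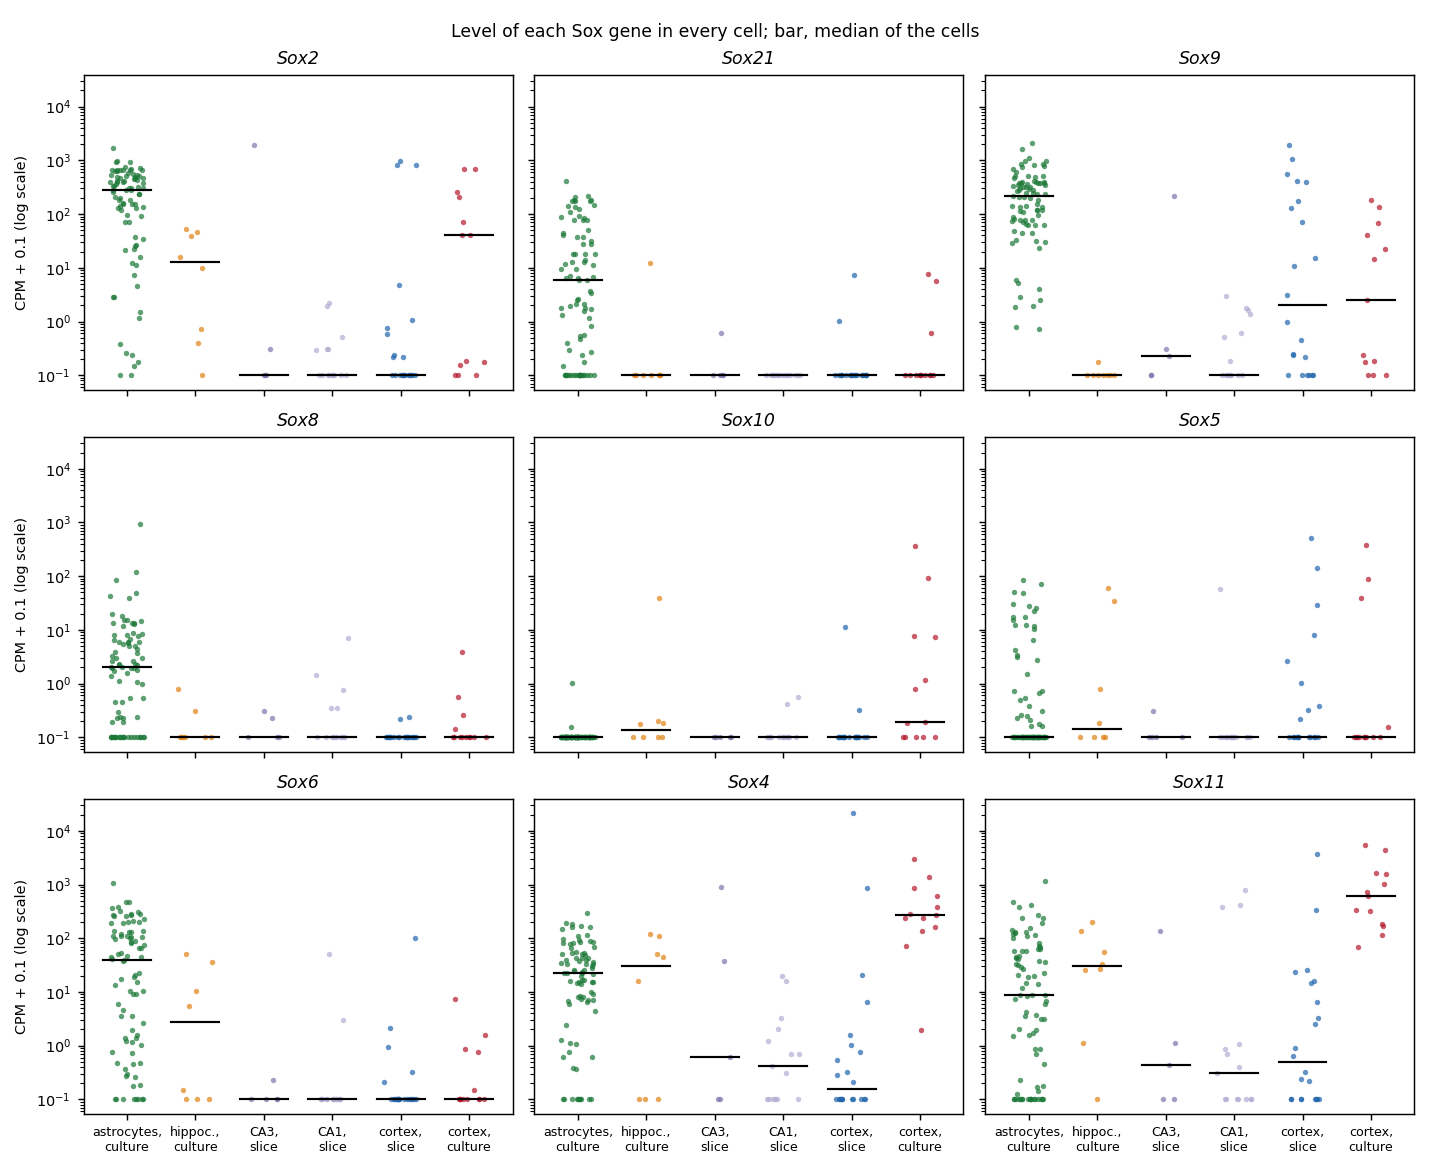
Each panel plots 1 Sox gene, with the CPM of every cell plus 0.1 on a log axis, the 6 groups along the horizontal axis and a bar at the median of the cells. Sox2 and Sox9 are spread over a high range in astrocytes, with medians of 279 and 216 CPM, while Sox4 and Sox11 are high in cultured cortical neurons, with medians of 266 and 603 CPM, and most slice neurons lie near 0 for every gene.

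Sox2, which keeps progenitors undifferentiated, had 0 CPM in the lowest astrocyte, 279 in the median and 1686 in the highest, against 0, 39.9 and 694 CPM in cultured cortical neurons. The groups overlapped, with most neurons below the median astrocyte. Sox2 was detected in 73 of 86 astrocytes (84.9%, 75.5 to 91.7) and in 7 of 13 neurons (53.8%, 25.1 to 80.8). The summed levels were 327 CPM (326 to 328) in astrocytes and 119 CPM (118 to 120) in neurons, a log2 ratio of 1.45. Without the 3 neurons richer in astrocyte markers the neurons had 61.9 CPM and the log2 ratio was 2.39.

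Sox9, the gliogenic factor, was detected in 80 of 86 astrocytes, with 0.628 CPM in the lowest, 216 in the median and 2072 in the highest cell. Cultured cortical neurons had 0, 2.47 and 181 CPM, so the highest neuron lay below the median astrocyte. Without the same 3 neurons the summed level was 15.5 CPM in the remaining 10 and the log2 ratio, astrocytes over neurons, was 4.27. Sox2 and Sox9 were detected together in 72 of the 86 astrocytes, and their levels had a Pearson r of 0.49 and a Spearman rho of 0.38 over these cells, which share library preparation but differ in depth.

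Sox6, a gene without its own activation domain that works with other Sox proteins, had 0 CPM in the lowest astrocyte, 40 in the median and 1079 in the highest, against 0, 0 and 7.15 CPM in cultured cortical neurons. It was detected in 58 of 86 astrocytes and in 1 of 13 neurons. With 114 CPM in astrocytes and 0.664 CPM in neurons, its log2 ratio of 6.11 was the highest of the 9 genes in this comparison. Its close relative Sox5 went the other way, with 5.43 CPM in astrocytes and 44.9 CPM in neurons, a log2 ratio of -2.84. Without the 15-day neurons described below that ratio was 2.67, and without the 3 neurons richer in astrocyte markers -0.09.

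Sox21, a repressor that counters Sox2-type activators, had 0, 5.84 and 405 CPM in the lowest, median and highest astrocyte, against 0, 0 and 7.59 CPM in cultured cortical neurons. It was detected in 44 of 86 astrocytes and 2 of 13 neurons, and 42 of the 44 astrocytes also had Sox2. Sox8, a relative of Sox9, had 0, 1.91 and 942 CPM in astrocytes, and a single cell held 60.2% of its counts. Without that cell astrocytes had 6.43 CPM of Sox8, and the log2 ratio without the highest cell of either group was 2.77. Sox10 had 2 counts in all 86 astrocytes together, or 0.00157 CPM (0.000190 to 0.00567), and was detected in none, which allows a share of up to 4.20%. Olig1 and Olig2, which like Sox10 belong to the oligodendrocyte lineage but also occur in astrocytes, were detected in 68 and 52 of these cells.

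Sox4 and Sox11, the genes of young neurons, were not absent from astrocytes. Sox4 had 0, 22.6 and 292 CPM in the lowest, median and highest astrocyte and was detected in 66 of 86 cells, against 1.82, 266 and 2997 CPM and 12 of 13 cells in cultured cortical neurons. Sox11 had 0, 8.64 and 1153 CPM in astrocytes with 51 of 86 cells detected, against 68, 603 and 5366 CPM with 13 of 13 detected in neurons. The ranges of both genes overlapped between the groups, and the log2 ratios were -3.36 for Sox4 and -3.83 for Sox11. Dcx, a microtubule protein of migrating neurons, was detected in 1 of 86 astrocytes and 12 of 13 neurons, and all 12 of those neurons had both Sox4 and Sox11 detected.

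In the same libraries, all 15 young neuron markers measured were lower in astrocytes by a log2 ratio of at least 1, among them Dcx (0.261 CPM in astrocytes, 936 in neurons), Crmp1 (0.951 and 598) and Elavl3 (2.11 and 242). Of 13 radial glia markers, 7 were higher and 1 lower, among the higher ones Hes1 (75.2 CPM in astrocytes, 0.311 in neurons), a Notch target that restrains neuron formation, and Lhx2 (436 and 13.4). Among 14 astrocyte markers measured, 4 were higher and 3 lower, with a median log2 ratio of 0.41 against 0.08 over all genes. Slc1a3 had 1098 CPM in astrocytes and 127 in neurons, whereas Mlc1 had 282 and 268. Of 24 measured partners and targets of Sox proteins 9 were higher and 5 lower, with a median log2 ratio of 0.25. Of all genes 29.8% were higher and 19.9% lower. None of 8 other Sox genes measured was higher and 4 were lower, including Sox1, a close relative of Sox2, with 11 CPM in astrocytes and 125 CPM in neurons. The median cell had 1.89 CPM of Sox1 in astrocytes and 8.81 CPM in neurons.

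Markers of other cells also differed. All 8 fibroblast and meningeal markers measured were higher in astrocytes than in cultured cortical neurons, with summed levels per cell of 58.7 to 28594 CPM in astrocytes and 0 to 2840 CPM in neurons, and 6 of 10 genes of dividing cells were higher. Mki67, a protein of dividing cells, was detected in 27 astrocytes, and 24 of these had Sox2, against 73 of all 86 astrocytes. Nes, an intermediate filament of progenitors, was detected in 75 of all 86 astrocytes and in 69 of the 73 with Sox2. The part of either kind of cell in the Sox levels was not tested.

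**Figure D2:**
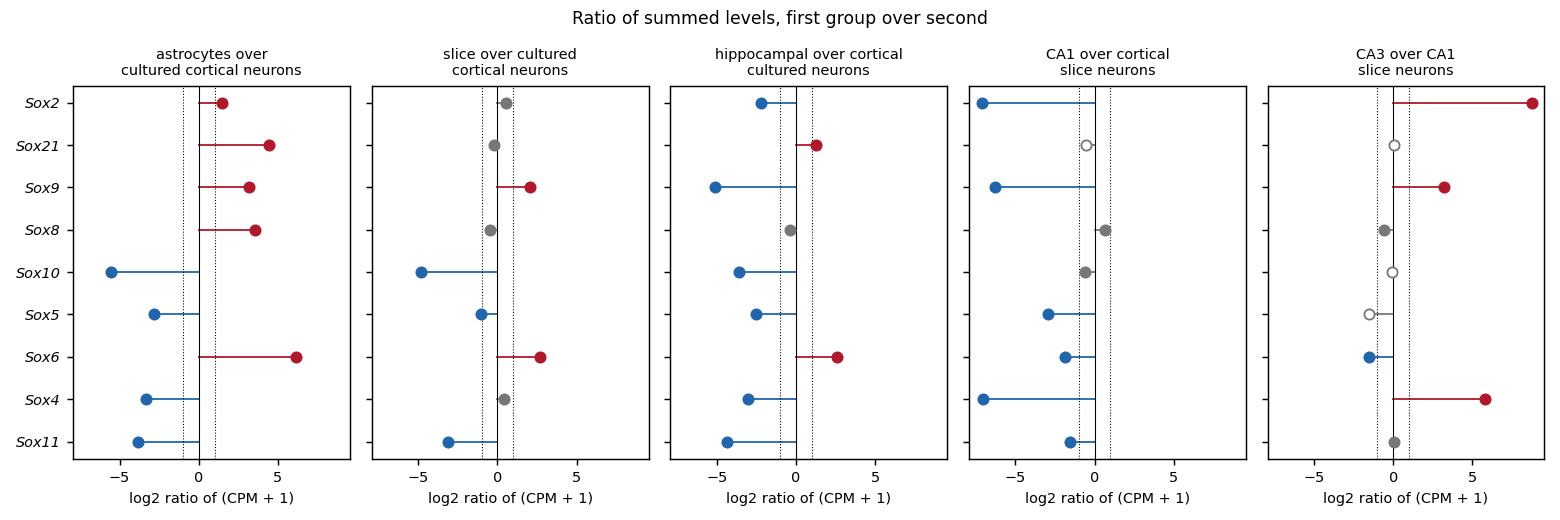
Points give the log2 ratio of (CPM + 1) of each Sox gene in 5 comparisons, the group named first over the group named second, with dotted lines at -1 and 1, red for higher, blue for lower, grey for neither and open points for genes with too few counts to be measured. In the panel of astrocytes over cultured cortical neurons 5 points lie to the right and 4 to the left, and in the panel of CA1 over cortical slice neurons 6 lie to the left.

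Within the astrocytes the levels varied with days in culture, which in part also separate strain. At 7, 12, 14 and 15 days the summed level of Sox2 was 895, 326, 153 and 378 CPM, and that of Sox9 525, 309, 203 and 462 CPM, over 3, 70, 5 and 8 cells. Neither gene followed the days in 1 direction. Sox6 had 20, 121, 141 and 48.9 CPM and Sox4 0.780, 47, 62.1 and 36.8 CPM at the same ages. Sox4 was detected in 0 of the 3 astrocytes of 7 days, which were the only C57/BL6 astrocytes, and in 66 of the 83 others.

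In cultured cortical neurons the Sox genes also differed between ages, with 3 cells at 6 days, 3 at 10, 4 at 13 and 3 at 15. The libraries of 6 and 15 days were basecalled with an older program version than those of 10 and 13 days, so age and version cannot be told apart between these pairs of ages. Sox11 had 5366, 4425 and 1007 CPM in the cells of 6 days, 1567, 112 and 1672 CPM at 10 days, 181, 166, 603 and 716 CPM at 13 days and 68, 320 and 331 CPM at 15 days. Every cell of 15 days lay below every cell of 6 days. The summed levels in order of age were 3978, 581, 445 and 267 CPM.

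Sox4 did not follow the same order. Its summed level was 240, 652, 714 and 176 CPM at 6, 10, 13 and 15 days. In the 6-day cell with the most Sox11, cell 1, Sox4 had 1.82 CPM and Dcx 0.835 CPM, so Sox11 was high there without the other 2 genes. In the 10-day cells 9 and 13, Sox4 had 852 and 2997 CPM beside 6068 and 10173 CPM of Dcx.

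Sox2 was detected in 1 of the 6 neurons of 6 and 10 days and in 6 of the 7 older ones. It was at 0 in the 3 cells of 6 days, had 0.0768, 0.0583 and 688 CPM at 10 days, 70.5, 207, 256 and 39.9 CPM at 13 days and 41.5, 0.0806 and 694 CPM at 15 days. Sox9 had at most 0.135 CPM in the cells of 6 and 10 days, 181, 2.47, 14.5 and 22 CPM at 13 days and 138, 69.5 and 40.2 CPM at 15 days. The 6 neurons with Sox9 detected all had Slc1a3, the glutamate transporter of astrocytes and radial glia, and 5 had Aqp4, the astrocyte water channel. All 6 also had Dcx and Snap25, a synaptic protein of neurons. Of all 13 neurons, 6 had Slc1a3, 5 had Aqp4, 12 had Dcx and 11 had Snap25.

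Sox10 and Sox5 were nearly confined to the 15-day neurons. In those 3 cells Sox10 had 7.46, 92.0 and 367 CPM and Sox5 86.6, 39.3 and 382 CPM. Elsewhere in the group the highest Sox10 value was 7.42 CPM, in cell 11 of 13 days, and Sox5 reached 0.0583 CPM. In cells 5 and 6, whose counts each come from 2 libraries, Sox10 had 77.6 and 149 CPM in the libraries of cell 5 and 366 and 368 CPM in those of cell 6.

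The 4 neurons with Sox10 detected stood beside other genes of the oligodendrocyte lineage. They had 2 to 6 of 9 oligodendrocyte precursor markers detected, with summed levels of 131 to 2975 CPM, against 0 to 4 markers and 0 to 671 CPM in the other 9 neurons. All 4 had Olig1, Olig2, Mbp and Dcx detected. Olig2 had 8.55, 291 and 1256 CPM in the 15-day cells, in the same order of cells as Sox10. Whether these cells were single neurons, other cells or mixtures was not tested.

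**Figure D3:**
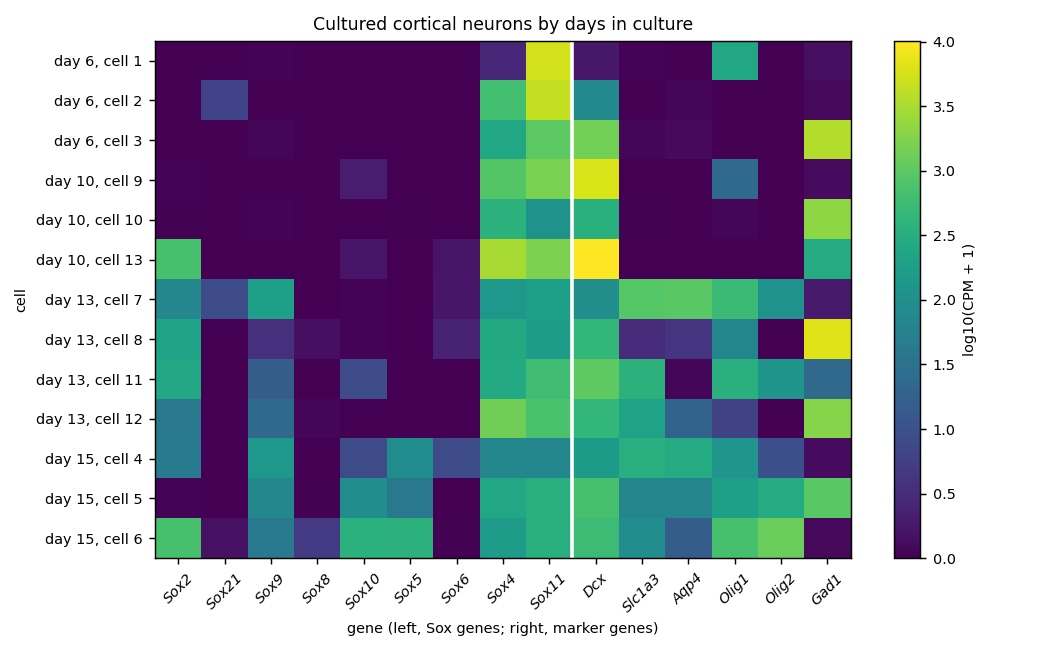
The heat map shows log10(CPM + 1) in the 13 cultured cortical neurons, ordered by days in culture down the page, for the 9 Sox genes on the left and 6 marker genes on the right of the white line. Sox11 is bright in every cell and brightest at 6 days, Sox2 and Sox9 appear mostly from 13 days on, and Sox10 and Sox5 stand out at 15 days beside Olig2.

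Hippocampal culture neurons, all 15 days old, had lower levels of most of these genes than cultured cortical neurons. Of the 9 genes 6 were lower by a log2 ratio of at least 1, against 25.3% of 13485 genes, and 2 were higher, against 30.3%. The median log2 ratio was -2.50 over the 9 genes and 0.15 over all genes. Scaled by TMM factors, 22.8% of all genes were higher and 30.3% lower. All 8 hippocampal cells had Gad1, the enzyme that makes GABA, and Lhx6, a factor of interneurons from the medial ganglionic eminence. In cortical culture 7 of 13 cells had Gad1 and 1 had Lhx6. The titles of 2 pairs of hippocampal libraries, cells 1 and 2 and cells 4 and 3, share a number and end in S and D, letters the labels do not explain, so the 8 libraries may not be 8 separate neurons. These pairs had an r of 0.72 and 0.71 on log2(CPM + 1) over all genes, within the range of 0.63 to 0.90 that these libraries had with other hippocampal ones. Without the 2 libraries ending in D, 6 genes were again lower and 2 higher. All 8 hippocampal libraries had the newer basecalling version, against 7 of the 13 cortical cells. Strain, brain region, kind of neuron, age and the mix of versions differ between these groups and cannot be told apart.

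Sox11 had 0, 30.1 and 204 CPM in the lowest, median and highest hippocampal cell, against 68, 603 and 5366 CPM in the cortical cells, a log2 ratio of -4.37. The 3 cortical neurons of the same age, 15 days, had 68, 320 and 331 CPM, and 6 of the 8 hippocampal cells lay below the lowest of them. Sox4 had 0, 30.1 and 121 CPM in hippocampal cells, against 1.82, 266 and 2997 CPM in cortical cells, a log2 ratio of -3.01. Sox2 had 0, 12.7 and 53 CPM in hippocampal cells, against 0, 39.9 and 694 CPM in cortical cells. It was detected in 5 of 8 hippocampal cells, all with Gad1 and Snap25.

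Sox9 was nearly missing from the hippocampal cells. It had 1 count in all 8 cells and was detected in none, which allows a share of up to 36.9%. Of 14 astrocyte markers measured, 13 were lower than in cortical culture by a log2 ratio of at least 1, and 0 higher. Their median log2 ratio was -2.22, against 0.15 over all genes. Detection of single markers was split. Slc1a3 and Gja1, a gap junction protein of astrocytes, were detected in none, against 6 and 5 of 13 cortical cells, whereas Clu was detected in all 8 and Slc1a2 and Glul in 7 each, against 6, 10 and 10 cortical cells. The median cell had 5 of the 15 markers in both groups. Sox10 was detected in 1 cell, cell 2, with 39.9 CPM.

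Sox6 ran against the other members. It had 0, 2.68 and 50.3 CPM in hippocampal cells, against 0, 0 and 7.15 CPM in cortical cells, with a log2 ratio of 2.60. The 4 hippocampal cells with Sox6 detected all had Lhx6 and Pvalb, the calcium-binding protein of a class of fast-spiking interneurons. Sox6 is known to act downstream of Lhx6 in interneurons. As all 8 cells had Lhx6 and 6 had Pvalb, the 4 cells without Sox6 detected were not set apart by Lhx6. The other gene called higher, Sox21, had all of its 261 counts in cell 1, and its log2 ratio of 1.26 was 0.90 with TMM factors. Sox10 and Sox5 had log2 ratios of -3.59 and -2.50, which were 1.34 and 3.00 without the 15-day cortical neurons.

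Sox1, the relative of Sox2 that was not among the 9 genes, was detected in all 8 hippocampal cells with 49.6, 119 and 220 CPM in the lowest, median and highest. Cultured cortical neurons had 0, 8.81 and 644 CPM of Sox1, and 7 of 13 cells had it detected. The summed levels were 123 CPM in hippocampal and 125 CPM in cortical culture, a log2 ratio of -0.01, though 1 cortical cell held 32.6% of the cortical counts. Chd7, a chromatin remodeller known to work with Sox2 in progenitors, was detected in 0 of 8 hippocampal and 7 of 13 cortical cells, with 0.569 and 218 CPM.

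Cortical slice neurons differed from cultured cortical neurons mainly in which cells carried a gene. Of the 9 genes 2 were higher in slice neurons, Sox9 and Sox6, against 24.7% of 13741 genes, and 3 were lower, Sox10, Sox5 and Sox11, against 37% of genes. The median log2 ratio was -0.21 over the 9 genes and -0.24 over all genes. Sox10 and Sox5 had log2 ratios of -4.84 and -1.03, and without the 15-day cultured neurons 0.091 and 4.47. Sox6 had 2.71, and -0.14 without the highest cell of each group, while microglia markers were higher in slice neurons, 11 of 12. The number of members detected per cell had a median of 1 in slice neurons (0 to 4) and of 3 in cultured neurons (1 to 7).

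Sox11 had 0, 0.386 and 3685 CPM in the lowest, median and highest slice neuron, against 68, 603 and 5366 CPM in cultured neurons, and it was detected in 7 of 22 (31.8%, 13.9 to 54.9) and in 13 of 13 cells. Its log2 ratio was -3.09, and slice cell 5 held 84.3% of the slice counts. Of the 20 slice neurons other than cells 3 and 5, none reached 68 CPM, the lowest cultured neuron. Cells 5 and 3, with 3685 and 336 CPM of Sox11, also had 1744 and 185 CPM of Dcx, whereas cell 9 had 1633 CPM of Dcx beside 14.4 CPM of Sox11.

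The summed levels of Sox4 were set by few cells. Sox4 had 0, 0.0575 and 21456 CPM in slice neurons and was detected in 4 of 22, against 1.82, 266 and 2997 CPM and 12 of 13 in cultured neurons. Slice cell 21 held 97.0% of the counts, and without it slice neurons had 19.4 CPM. The log2 ratio was 0.39 with every cell and -4.47 without the highest cell of each group. Cell 21 also had 1063 CPM of Sox9 and 1654 CPM of Snap25 but no Dcx count.

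Sox9 was detected in 10 of 22 slice neurons (45.5%, 24.4 to 67.8) and in 6 of 13 cultured neurons (46.2%, 19.2 to 74.9). It had 0, 1.92 and 1920 CPM in the lowest, median and highest slice neuron, against 0, 2.47 and 181 CPM in cultured neurons, so the medians were close and the upper ends were not. The log2 ratio was 2.03, and 2.92 without the neurons richer in astrocyte markers, where 8 of 17 slice neurons and 3 of 10 cultured neurons had Sox9. Of the 10 slice neurons with Sox9 9 had Snap25, 6 had Slc1a3 and 1 had Aqp4, against 18, 8 and 1 of all 22. The highest, cell 14 with 1920 CPM, had 1.76 CPM of Snap25 and 545 CPM of Nrgn, a postsynaptic protein of excitatory neurons.

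Sox2 was seen in few slice neurons and was high there. It had 980, 835 and 834 CPM in cells 1, 7 and 22, 4.78 CPM in cell 21 and under 1 CPM in the other 18. Cells 1 and 7 had 5142 and 8713 CPM of Gad1, whereas cell 22 had no Gad1 count and 531 CPM of Nrgn. The titles of the slice libraries begin with F for 5 cells, P for 16 and RS for 1, with no explanation of the letters in the labels. Sox2 was detected in 3 of 5 F cells and 0 of 16 P cells, while Gad1 was detected in all 5 F cells and 3 of 16 P cells.

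Sox5 and Sox6 appeared beside Sox2 in cell 1, with 143 and 101 CPM, and Sox5 in cell 22 with 522 CPM. Sox6 was detected in no other slice neuron of the cortex. Sox5, known for its role in the projection neurons of the deep cortical layers, was detected in 4 slice neurons, cells 1, 5, 15 and 22. All 4 had Slc17a7, the vesicular glutamate transporter of excitatory neurons, as did 12 of all 22 slice neurons. In cell 1 Slc17a7 had only 4.92 CPM, beside 5142 CPM of Gad1. Of the deep-layer markers Bcl11b was detected in 2 of the 4, Fezf2 in 1 and Tbr1 in 1, and Gad1 was detected in 1, cell 1. Sox10 was detected in cell 16 alone, with 11 CPM, beside 6 of 10 oligodendrocyte markers. Other slice neurons had up to 5 of those markers and at most 0.218 CPM of Sox10. Microglia markers were spread over the slice neurons too, with summed levels per cell of 0.456 to 20824 CPM, against 0 to 2008 CPM in cultured neurons, and their part was not tested.

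**Figure D4:**
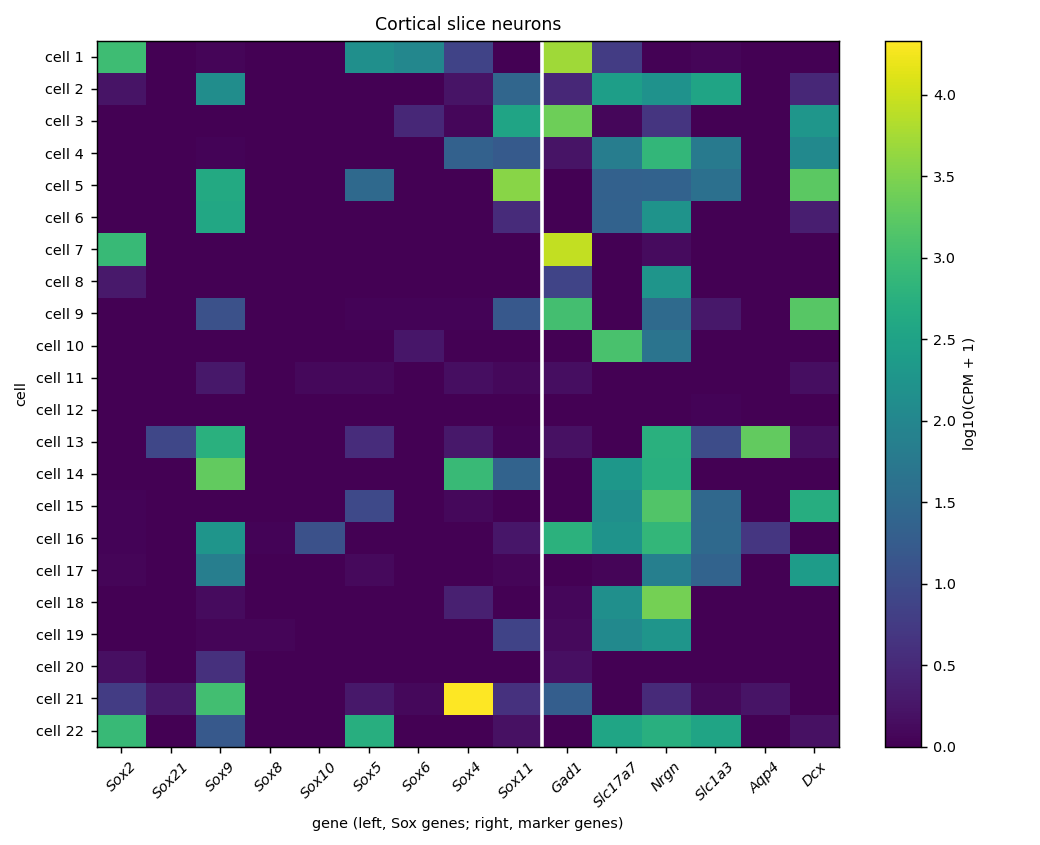
The heat map shows log10(CPM + 1) in the 22 cortical slice neurons for the 9 Sox genes on the left and 6 marker genes on the right of the white line. Sox9 is bright in several cells with Nrgn, Sox2 in cells 1, 7 and 22, and Sox4 in cell 21, the single brightest value at 21456 CPM.

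In CA1 neurons Sox2 and Sox4 had the lowest summed levels of the 6 groups. Sox21 had 0 counts there and 1 in CA3. Sox11 had 36.5 CPM (35.1 to 37.8), close to 38.1 CPM (35.8 to 40.4) in CA3. Without the highest cell of each group Sox11 had 18.7 CPM in CA1 and 0.151 CPM in CA3. The other 5 genes were not lowest in CA1. In CA1 0 of the 8 genes measured were higher than in cortical slice neurons, against 22.6% of 12666 genes, and 6 were lower, against 39.8%. The median log2 ratio was -2.39 over the 8 genes and -0.37 over all genes. With DESeq2 size factors 29.5% of all genes were higher and 34% lower. Sox2 had 18 counts and Sox9 61 counts in the 15 CA1 neurons, or 0.231 CPM (0.137 to 0.365) and 0.783 CPM (0.599 to 1.01), against 172 and 141 CPM in cortical slice neurons. Neither was detected in any of the 14 CA1 cells deep enough to be thinned, which allows a share of up to 23.2%. The log2 ratios were -7.13 for Sox2 and -6.32 for Sox9. The median cell had 0 CPM of Sox2 in both groups, and 0 CPM of Sox9 in CA1 against 1.92 CPM in cortical slices. Of 14 astrocyte markers measured, 10 were lower in CA1 by a log2 ratio of at least 1 and 3 were higher.

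Sox4 had 0, 0.325 and 19.7 CPM in the lowest, median and highest CA1 neuron, against 0, 0.0575 and 21456 CPM in the cortex, and its log2 ratio of -7.06 was -2.20 without the highest cell of each group. The log2 ratio of Sox11 was -1.52, but 0.12 without the highest cell of each group and 3.57 with libraries of the newer basecalling version only. Sox11 was high in 3 CA1 neurons, cells 8, 12 and 13, with 797, 409 and 384 CPM, and at most 0.980 CPM in the other 12. None of these 3 cells had a Dcx count, unlike cortical slice cells 3 and 5. Dcx was detected in 0 of the 14 CA1 cells thinned. Cell 12 had the fewest counts of all cells. Sox5 and Sox6 were both confined to cell 15 at 57.7 and 50.2 CPM, apart from 2.91 CPM of Sox6 in cell 9. Cell 15 also had 137 CPM of Sst, the interneuron peptide, beside 2361 CPM of Nrgn, but only 3.39 CPM of Gad1, 0.377 CPM of Pvalb and no Lhx6 count. It had 7 of 15 inhibitory and 4 of 12 excitatory neuron markers detected. Sox21 had no count in CA1, where 3 counts would be 0.0385 CPM.

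In the 5 CA3 neurons the summed levels came from single cells. Of the 6 genes measured 3 were higher than in CA1, Sox2, Sox9 and Sox4, against 24.8% of 9378 genes, and 1 was lower, Sox6, against 46.2%. The median log2 ratio was 1.64 over these 6 genes and -0.70 over all genes. Sox2 had 0.203, 0, 0, 1928 and 0 CPM in CA3 cells 1 to 5, against at most 2.08 CPM in a CA1 cell. Sox4 had 0, 37, 0, 903 and 0.510 CPM, and Sox11 had 0, 0, 0.339, 138 and 1.02 CPM, so cell 4 held nearly all of the 3 genes.

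CA3 cell 4 had 53.1 CPM of Dcx, the only Dcx counts among the CA3 cells, together with 231 CPM of Snap25 and 284 CPM of Slc17a7. It had no count of Gad1 or of Tubb3, which had 55.1 and 898 CPM in cells 2 and 3, where Sox11 was at most 0.339 CPM. Of 15 young neuron markers 5 were detected in cell 4 and 3 to 6 in the other cells. Sox9 had 0.203, 0, 0, 0.133 and 218 CPM in cells 1 to 5, against at most 2.95 CPM in a CA1 cell, and cell 5 had no count of Slc1a3, Aqp4 or Gfap but had Slc1a2 detected. Cell 5 had 3 of 15 astrocyte markers detected and the other CA3 cells 1 to 3. Without cell 4 the log2 ratio, CA3 over CA1, was -0.23 for Sox2 and -5.02 for Sox11, which had 0.06 with every cell, and without cell 5 that of Sox9 was -0.73.

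Detection of Sox2 or Sox9 and of Sox4 or Sox11 was counted cell by cell. How often both kinds occur in a cell depends on how common each kind is, and no departure from that was tested. In astrocytes 72 of 86 cells had Sox2 or Sox9 detected together with Sox4 or Sox11, 9 had only the first kind, 3 only the second and 2 neither. In hippocampal culture 5 of 8 cells had both kinds, 2 only Sox4 or Sox11 and 1 neither. In CA1 11 of 14 cells had neither kind and 3 only Sox4 or Sox11, and in the 5 CA3 cells the 4 classes held 1, 1, 1 and 2 cells. Of 22 cortical slice neurons 6 had both kinds, 6 only Sox2 or Sox9, 3 only Sox4 or Sox11 and 7 neither. In cortical culture 8 of 13 neurons had both kinds and the other 5 only Sox4 or Sox11. As all 13 had Sox11, every one with Sox2 or Sox9 had both kinds.

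**Figure D5:**
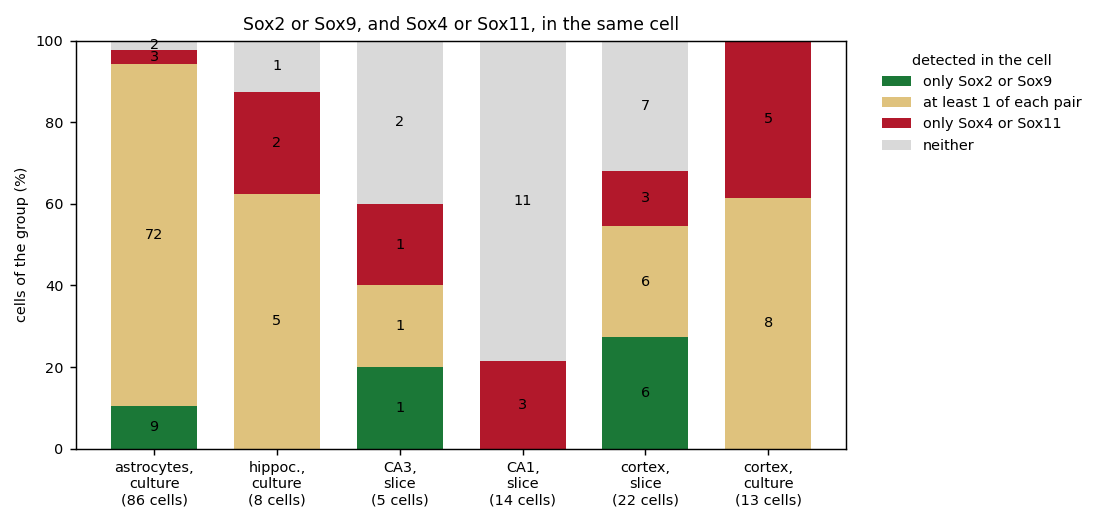
Bars give the percentage of cells in each group by which Sox genes were detected, with the number of cells written in each segment. The share with at least 1 gene of each pair is 72 of 86 in astrocytes, 8 of 13 in cultured cortical neurons and 6 of 22 in cortical slice neurons, and CA1 has none.

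Across all 149 cells the gene with the level most like that of Sox9 was Pdpn, with a Pearson r of 0.73 on log2(CPM + 1), followed by Ctgf, Itgav, Shroom3 and Slc1a3 (0.72 to 0.71). For Sox2 they were Id4 (0.72), Lamb2, Fgfr2, Cnn3 and Wls (0.69 to 0.68). For Sox11 they were Dcx and Nrep (0.46 each), Hn1, Yeats4 and Fasn (0.44 to 0.42), and for Sox4 Bnip3l (0.50), Nrep, Fyn and Cd24a (0.49 to 0.46). These values were taken among 11488 genes, and because 86 of the 149 cells were astrocytes, they follow the difference between the groups as well as that between cells. Sox10 was detected in too few cells for such a measure. Over the 148 cells thinned, Sox4 and Sox11 had an r of 0.38 and were detected together in 62 cells. Within groups that r was 0.12 in astrocytes, -0.20 in hippocampal culture, 0.83 in the 5 CA3 cells, 0.39 in CA1, 0.10 in cortical slices and -0.04 in cultured cortical neurons.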

How the data were processed

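RNA of single cells was amplified in 3 rounds, per the series' design text, and sequenced from TruSeq Stranded libraries of polyA RNA, per the labels. Basecalling used bcl2fastq 1.8.4 for 22 libraries and bcl2fastq2 2.17 for 136, per the labels, and the submitters' processing notes name STAR, HTSeq and mm10 (GRCm38). For STAR and HTSeq no version or strand setting was found in the labels. The deposited table gives, as whole numbers, read counts per gene, 21956 rows by 158 libraries, with no normalization by the authors.

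Libraries of 9 repeat pairs were summed, 8 recognised by title and 1 by its counts (r of 0.945 to 0.999, against at most 0.621 between these and any other library), which left 149 cells. CPM were computed here after adding up a group's cells, and log2 ratios used a pseudocount of 1 CPM. Genes with fewer than 10 counts over the 2 groups, or seen in fewer than 3 cells, were not measured. Cells were thinned to 1000000 counts (seed 7), which left out 1 CA1 cell with 535369. Reads carry no molecular identifiers, so Poisson intervals and floors (3 counts) cover counting error only, and this error was small beside the spread between cells. Scripts used Python 3.11.15, numpy 2.4.6, pandas 2.3.3 and scipy 1.17.1, with edgeR 4.0.16 and DESeq2 1.42.0 in R 4.3.3 for scaling factors only, and were tested on simulated data. Coordinates, coding sequences and overlaps come from GENCODE M21 and the GRCm38 genome, promoters from RefSeq.

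Named were the 9 genes in every group, up to 3 genes per marker list by the difference in detection, and the 5 genes of highest correlation with Sox9, Sox2, Sox11 and Sox4, predicted genes passed over. For Sox4, 1 of these is not reported here. Other markers were named after their values were seen. Members and lists were chosen with earlier results of these data known. Alternatives covered scaling, pseudocount, filter, cells left out, repeat libraries, basecalling version and the detection rule.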

Additional observations from a re-analysis of the deposited data

Results flagged for a closer look

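In the 2 groups of 4 to 10 cells, 17 sets of values with any count were checked for a cell far from the rest by Dixon's criterion, and 10 were marked, where chance marks about 1 in 20. In hippocampal culture these were Sox21 in cell 1 (12.3 CPM, the next cell 0), Sox10 in cell 2 (39.9 CPM, the next 0.103), Sox8 in cell 4 (0.706 CPM, the next 0.215) and Sox9 in cell 6 (0.0744 CPM, which is 1 count). In CA3 they were Sox2 and Sox11 in cell 4 (1928 and 138 CPM, the next cells 0.203 and 1.02), Sox9 in cell 5 (218 CPM, the next 0.203) and single counts of Sox21 in cell 5 (0.510 CPM), Sox5 in cell 1 (0.203 CPM) and Sox6 in cell 4 (0.133 CPM). Where 4 of 5 cells are at or near 0, any cell with the gene meets this criterion. CA3 cell 4 had the highest values of Sox2, Sox4 and Sox11 together, and no other CA3 cell had Dcx.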

How the results depend on the processing

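Given here are numbers of Sox genes past 1 or -1 on the log2 scale, and log2 ratios that changed sign with at least 1 value past that size. With libraries of the newer basecalling version only, astrocytes over cultured cortical neurons had 2 lower and Sox5 2.66. Slice over cultured cortical neurons had 1 lower, Sox10 0.25 and Sox5 4.58. Hippocampal over cortical culture had Sox10 1.23 and Sox5 3.00, and CA1 over cortex had 1 higher, Sox11 at 3.57. Without the 15-day cultured cortical neurons, a choice made after seeing the data, the values were 2 lower and Sox5 2.67 for astrocytes, 4 higher, 1 lower, Sox10 0.091 and Sox5 4.47 for slice neurons, and 4 higher, Sox10 1.34 and Sox5 3.00 for hippocampal culture. Without the neurons richer in astrocyte markers, slice neurons had 4 higher with Sox5 2.00, and hippocampal culture 1 higher with Sox5 0.24. Without the highest cell of each group, slice neurons had 1 higher, Sox4 -4.47, Sox5 0.46 and Sox6 -0.14. Hippocampal culture had 1 higher and Sox21 -0.36, CA1 had Sox6 0.22 and Sox11 0.12, and CA3 had 1 higher, Sox2 -0.16, Sox9 -0.25 and Sox11 -4.10. Sox11 in CA3 was -1.89 under means of single cells. Hippocampal culture also had 1 higher under means of single cells, TMM, DESeq2 factors and a pseudocount of 5 CPM. CA1 had 1 higher at a pseudocount of 0.1 CPM. CA3 had 2 lower under means of single cells, a pseudocount of 0.1 CPM and no filter, and 0 at 5 CPM. Leaving out each CA3 cell in turn gave -0.23 to 9.41 for Sox2, lowest without cell 4, -0.73 to 3.85 for Sox9, lowest without cell 5, and -5.02 to 0.71 for Sox11, lowest without cell 4. Beyond the settings named, the cause was not tested. Of 512 log2 ratios under the alternatives, 33 changed sign, 7 of them between values within the fold of 2, while 18 others dropped below that fold and 7 passed it.

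TMM turned the split of all genes in hippocampal over cortical culture to 22.8% higher and 30.3% lower, and moved the median by over 0.1 to -0.11. Slice cells had fewer genes detected even after thinning to the same depth, which limits what detection shares there can show. No paired analysis was possible because the labels tie no cell to an animal or culture and no test was made.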
